A study of Mus musculus with 6 samples.

Results

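The MYC, MAX and MXD network was examined by RNA sequencing in mouse CD4+ T cells. Its members were chosen by name: Myc, Mycn, Max, Mxd1, Mxd3, Mxd4, Mxi1, Mnt and Mlx, 9 of the 55263 genes to which the deposited transcripts were assigned. All 9 were among the 17621 genes with enough counts to be tested. Of the 6 libraries, 3 were Wtap knockout by their labels (Wtap KO) and 3 wild type (WT), all of the strain C57BL/6J. The question was how loss of Wtap, a subunit that guides the m6A methyltransferase to mRNA, affects T cells. Per the labels' protocols, the cells were treated with 4-hydroxytamoxifen at 1 µM for 24 h. They were then activated with antibodies to CD3 (1 µg/mL) and CD28 (2.5 µg/mL), with IL-12 at 10 ng/mL and an antibody to IL-4 at 10 µg/mL, for 40 to 48 h. After that they grew in IL-2 at 200 IU/mL until harvest on day 4. The protocol is the same text for both groups. The sources used here do not say which part of Wtap was deleted, whether Cre was present in WT cells, or whether the libraries are from separate animals. The p-values therefore measure the spread between these libraries only.

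MYC, MYCN and the other MYC proteins are transcription factors with a basic helix-loop-helix and leucine zipper. They bind the E-box CACGTG only as dimers with MAX, and as such dimers they raise transcription of genes for ribosome production, nucleotide synthesis and nutrient uptake. The MXD proteins, MXI1 and MNT compete with MYC for MAX and for the same E-boxes, and bring SIN3 and histone deacetylases to them. MLX is the MAX-like partner of MondoA (Mlxip) and ChREBP (Mlxipl), which respond to glucose metabolites. In T cells, MYC is induced after the antigen receptor is engaged and is needed for growth and for the shift to glycolysis and glutamine use.

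The libraries held 37121040, 40754960 and 44039467 estimated counts in the Wtap KO group and 36641082, 32363139 and 38546728 in the WT group. Levels are given as CPM (counts relative to the scaled library total) for the same gene across libraries, and as TPM (the same idea with transcript length also divided out) between genes. A log2 fold change is that of Wtap KO over WT, so a positive one means higher in Wtap KO, and a gene is called where its p, adjusted over all genes tested, is under 0.05. Total Wtap RNA averaged 117 ± 3.00 CPM in Wtap KO and 105 ± 9.99 CPM in WT (SD, n = 3 each), and did not pass the test (adjusted p = 0.371, edgeR, quasi-likelihood). The transcript Wtap-205 held 10.3%, 11.0% and 8.83% of the gene's counts in Wtap KO, against 55.8%, 50.7% and 47.5% in WT (adjusted p = 0.00952, limma on log-ratios), and this call was lost without Wtap KO replicate 1 (adjusted p = 0.0771). On simulated data with the same spread set for every transcript, this test of shares made more false calls than its threshold allows. Wtap-201 held 62.5% ± 3.34 in Wtap KO and 33.7% ± 6.42 in WT (SD, n = 3 each), and was not called (adjusted p = 0.0747, limma). Wtap-203 held 13.9% to 19.1% in Wtap KO and 0% to 0.437% in WT, and was not called either (adjusted p = 0.117, limma). Wtap-201 and Wtap-203 are annotated with 396 residues, and Wtap-205 with 151. Per length, Wtap-201 was at 35.4 to 41.3 TPM in Wtap KO and 16.2 to 18.7 TPM in WT. Wtap KO replicate 3 stood apart in sex-linked genes. The Y-linked gene Kdm5d reached 63.3 CPM there, while the other 5 libraries had 2.43 to 3.53 CPM. Xist, the RNA made from the inactive X chromosome, was at 3.81 CPM there, against 1979 and 2161 CPM in the other Wtap KO libraries and 4447, 3460 and 3160 CPM in WT. The labels used here give no sex. Without that library, the log2 fold change was 0.57 for Myc (adjusted p = 0.105, edgeR) and 0.27 for Max (adjusted p = 0.319, edgeR), and again no member passed. All 10 CD4 T cell markers were tested. Their summed level was 3295 to 3633 TPM in Wtap KO and 3827 to 4231 TPM in WT, and 2 of the 10, Cd3g and Cd4, fell. The call of Cd3g was lost without WT replicate 2, Wtap KO replicate 1 or Wtap KO replicate 2 (adjusted p up to 0.0774, edgeR). That of Cd4 was lost without any 1 of these or of Wtap KO replicate 3 (adjusted p up to 0.113, edgeR). The 2 CD8 markers summed to 11.4 to 13.9 TPM in Wtap KO and 7.18 to 7.79 TPM in WT. Of these, Cd8b1 rose by 0.71 on the log2 scale (adjusted p = 0.0268, edgeR), a call lost without WT replicate 2, Wtap KO replicate 1 or Wtap KO replicate 2 (adjusted p up to 0.134). In bulk RNA, a change in the number of cells of a type and a change in RNA per cell cannot be told apart.

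No member passed the test between Wtap KO and WT cells, while the genome-wide comparison called 9.23% of the genes tested (adjusted p under 0.05, edgeR), 5.74% higher and 3.48% lower. That split depended on the setting, with 1012 genes higher and 614 lower in this test, 935 and 330 with limma on log2(TPM + 1), 924 and 337 with limma on log2(TPM + 0.1), and 953 and 1292 with an offset on GC content. The count of members called was 0 of 9 with edgeR and 0 of 9 with DESeq2, where 14.6% of all genes were called. At an unadjusted p under 0.05, edgeR gave 2 of 9, Myc and Max, beside 26.3% of all genes. The log2 fold change was above 0 for 4 members (Myc, Max, Mxd1 and Mnt) and below 0 for 5, with a median of −0.10 over the 9 members and 0.00 over all genes. The CPM values of the groups did not overlap for 1 member, Max, against 32.7% of all genes. Over 134 further values, each a member under an alternative setting, 0 passed the threshold, and the lowest adjusted p was 0.0528, for Max without WT replicate 3. A member that misses the threshold is not thereby shown to be equal in both groups, and the intervals below give the differences that remain possible.

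**Figure D1:**
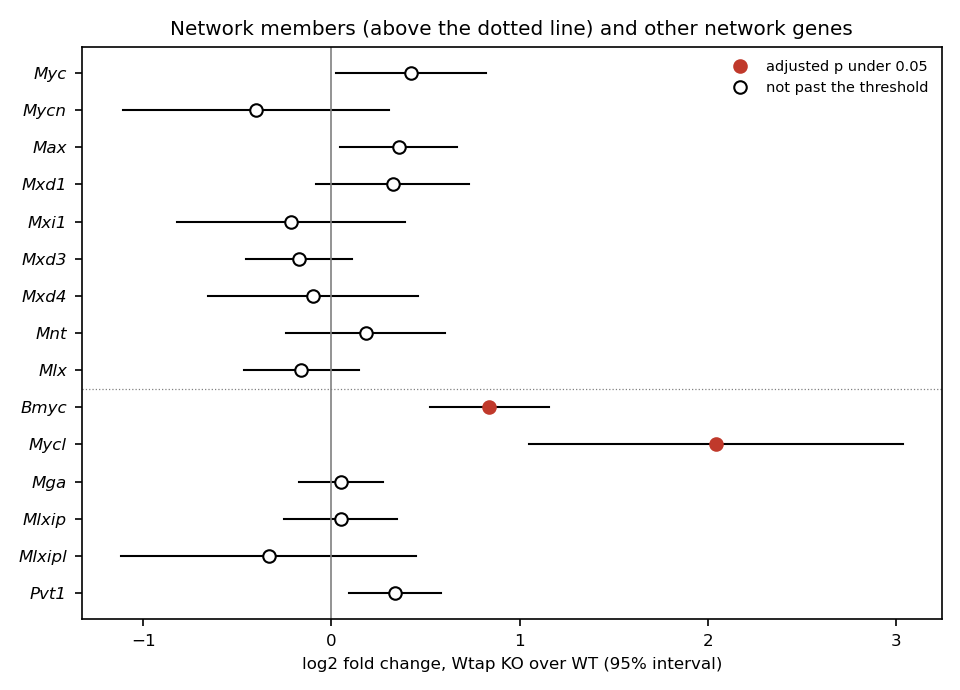
Log2 fold change of each member (above the dotted line) and of the other network genes, Wtap KO over WT, with the 95% interval from edgeR's quasi-likelihood test (3 libraries per group). The intervals of Myc and Max, and of Pvt1 among the other genes, lie above 0 before adjustment over all genes, and Bmyc and Mycl (filled) are called.

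Myc and Max, the activator and the partner that it needs to bind DNA, were the most abundant members in both groups. Myc (chromosome 15, 61985391 to 61990374, plus strand, GRCm38) was measured at 213, 176 and 138 CPM in Wtap KO, against 118, 157 and 118 CPM in WT. The highest libraries were Wtap KO replicates 1 and 2, and Wtap KO replicate 3 lay below WT replicate 2, so the groups overlapped. The means were 176 ± 37.2 CPM in Wtap KO and 131 ± 22.5 CPM in WT (SD, n = 3 each), a log2 fold change of 0.42 ± 0.18 (SE) with a 95% interval of 0.02 to 0.82. The unadjusted p was 0.0406 and the adjusted p 0.169 (edgeR). Without Wtap KO replicate 1, the log2 fold change was 0.27 and the adjusted p 0.478.

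Mycn (chromosome 12, 12936093 to 12941914, minus strand), a MYC family member that is mainly used in embryonic and neural tissue, was low in all libraries. It was measured at 1.83, 1.79 and 0.951 CPM in Wtap KO, against 1.85, 2.53 and 1.66 CPM in WT, which are 43 to 73 estimated counts per Wtap KO library and 61 to 81 per WT library. The ranges overlapped, and the log2 fold change was −0.40 ± 0.31 (SE, adjusted p = 0.462, edgeR). It was −0.15 without Wtap KO replicate 3, the lowest library, and −0.21 without WT replicate 2, the highest. Per length, Myc averaged 101 TPM in Wtap KO and 72.5 TPM in WT, and Mycn 0.599 TPM in Wtap KO and 0.775 TPM in WT.

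Max (chromosome 12, 76937269 to 76962201, minus strand) was measured at 164, 170 and 198 CPM in Wtap KO, against 117, 138 and 161 CPM in WT. Every Wtap KO library lay above every WT library, but the gap was narrow, with 164 CPM in the lowest Wtap KO library and 161 CPM in the highest WT library. The means were 178 ± 18.1 CPM in Wtap KO and 139 ± 21.9 CPM in WT (SD, n = 3 each). The log2 fold change was 0.36 ± 0.14 (SE) with a 95% interval of 0.05 to 0.67, an unadjusted p of 0.0285 and an adjusted p of 0.138 (edgeR). Leaving out each library in turn gave log2 fold changes of 0.25 to 0.48 and adjusted p-values of 0.0528 to 0.319.

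**Figure D2:**
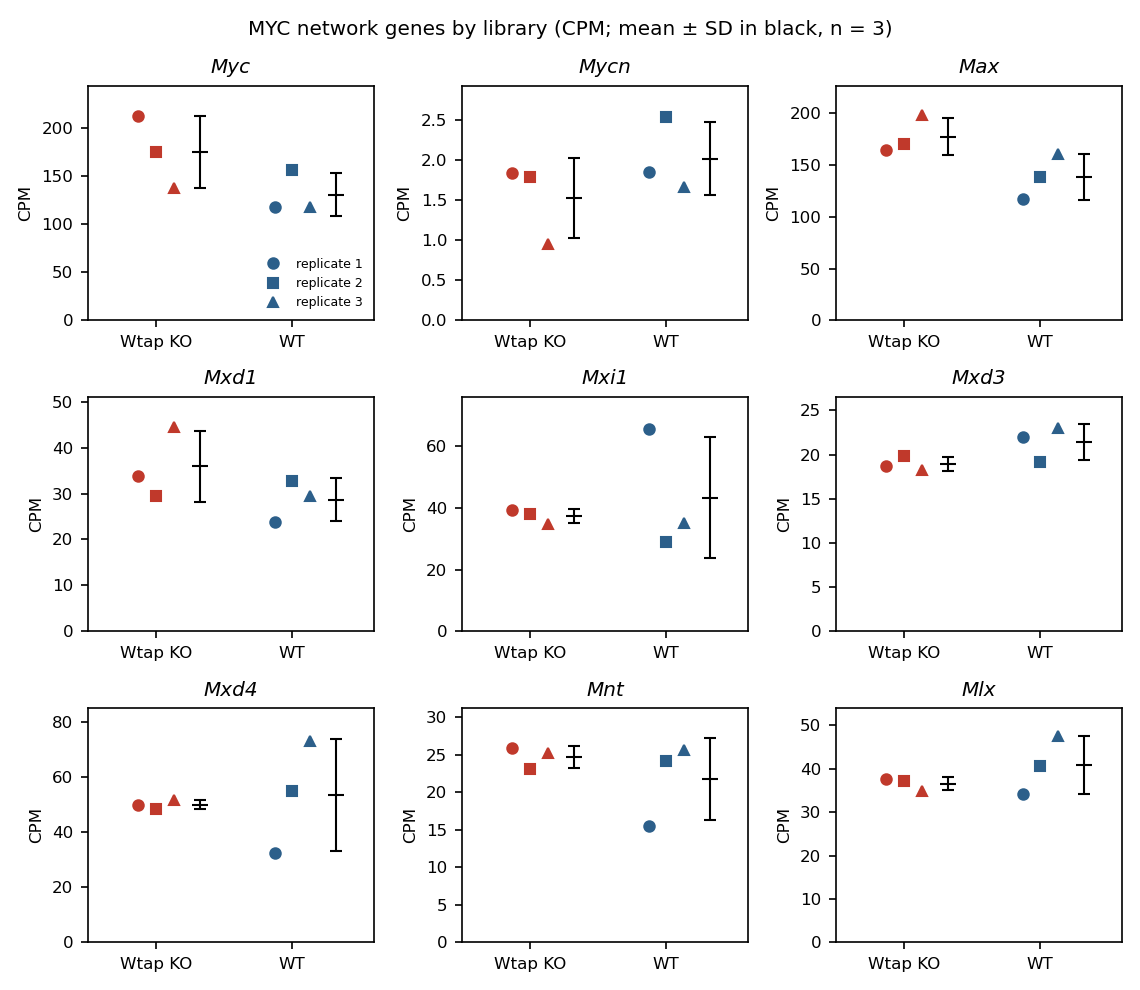
CPM of the 9 members in each library (points) with the group mean and SD, Wtap KO left of WT; each panel has its own axis. Max is the member whose groups do not overlap. WT points spread more widely than Wtap KO points for Mxd3, Mxd4, Mxi1, Mnt, Mlx and, by less, Max.

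The MAX-binding repressors showed no called difference in either direction. Mxd1 (MAD1; chromosome 6, 86647042 to 86669161, minus strand), a repressor that is induced as cells leave the cycle and differentiate, was measured at 33.7, 29.5 and 44.5 CPM in Wtap KO, against 23.8, 32.8 and 29.5 CPM in WT. Wtap KO replicate 3 was the highest library and the groups overlapped, with a log2 fold change of 0.32 ± 0.18 (SE, adjusted p = 0.293, edgeR). It was 0.14 without that library and 0.20 without WT replicate 1. Mxd3 (chromosome 13, 55325168 to 55329823, minus strand), a repressor that in contrast to Mxd1 is found in proliferating cells, was measured at 18.7, 19.8 and 18.3 CPM in Wtap KO, against 22.01, 19.1 and 23.0 CPM in WT. WT replicate 2 lay among the Wtap KO values, and the log2 fold change was −0.17 ± 0.12 (SE, adjusted p = 0.421, edgeR). An exon stretch of 105 bases of Mxd3 overlaps Prelid1 on the opposite strand, which was at 122 to 174 TPM in Wtap KO and 167 to 193 TPM in WT. The sources used here do not give the strand setting of the counting, so reads from that stretch may belong to either gene.

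Mxd4, Mxi1 and Mnt, like Max, Mxd3 and Mlx, varied more among WT libraries than among Wtap KO libraries. Mxd4 (chromosome 5, 34173883 to 34187720, minus strand), a further MXD repressor, was measured at 49.8, 48.5 and 51.9 CPM in Wtap KO, against 32.6, 54.8 and 73.3 CPM in WT. The WT libraries lay on both sides of the Wtap KO libraries, whose SD was 1.72 CPM against 20.4 CPM in WT. The log2 fold change was −0.10 ± 0.24 (SE) with a 95% interval of −0.65 to 0.46 (adjusted p = 0.847, edgeR), and 0.20 without WT replicate 3. Mxi1 (MXD2; chromosome 19, 53310518 to 53375810, plus strand) was measured at 39.4, 38.0 and 34.8 CPM in Wtap KO, against 65.8, 29.1 and 35.3 CPM in WT. WT replicate 1 was the highest library and WT replicate 2 the lowest. The log2 fold change was −0.21 ± 0.27 (SE, adjusted p = 0.670, edgeR) with all libraries and 0.21 without WT replicate 1 (adjusted p = 0.290, edgeR). Mnt (chromosome 11, 74830920 to 74845725, plus strand), the repressor that is present in both resting and cycling cells and buffers MYC, was measured at 25.9, 23.1 and 25.2 CPM in Wtap KO, against 15.5, 24.2 and 25.7 CPM in WT. Only WT replicate 1 lay below the Wtap KO range, and without it the log2 fold change was −0.01, against 0.18 ± 0.19 (SE, adjusted p = 0.590, edgeR) with all libraries. WT replicate 1 was the WT library with the highest Mxi1 and the lowest Max, Mxd1, Mxd4, Mnt and Mlx.

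Mlx (chromosome 11, 101087277 to 101092207, plus strand), the dimer partner of MondoA, was measured at 37.6, 37.1 and 34.8 CPM in Wtap KO, against 34.3, 40.7 and 47.5 CPM in WT. The groups overlapped and the log2 fold change was −0.16 ± 0.13 (SE, adjusted p = 0.496, edgeR). It was −0.039 without WT replicate 3, the highest library, and −0.28 without WT replicate 1, the lowest. Mlx shares 385 exonic bases with Psmc3ip on the opposite strand, which was at 8.12 to 10.0 TPM in Wtap KO and 5.02 to 8.17 TPM in WT.

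The order of the members by level per length had Max and Myc at the top and Mycn at the bottom in both groups. In Wtap KO, the mean TPM values were 115 for Max, 101 for Myc, 23.8 for Mlx, 15.6 for Mxd3, 15.5 for Mxi1, 13.6 for Mxd4, 9.57 for Mnt, 8.13 for Mxd1 and 0.599 for Mycn. In WT, they were 85.6 for Max, 72.5 for Myc, 25.0 for Mlx, 17.2 for Mxi1, 17.0 for Mxd3, 13.9 for Mxd4, 8.17 for Mnt, 6.33 for Mxd1 and 0.775 for Mycn. Among neighbours in this order, the ranges over libraries overlapped in Wtap KO for Max and Myc, Mxd3 and Mxi1, and Mnt and Mxd1. In WT, neighbouring members overlapped in range except Myc with Mlx and Mxd1 with Mycn.

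The summed levels of activators and repressors were set side by side as a description, without a test. Myc and Mycn together were at 125, 96.9 and 81.6 TPM in Wtap KO, against 67.0, 88.5 and 64.3 TPM in WT. The 5 repressors Mxd1, Mxd3, Mxd4, Mxi1 and Mnt together were at 63.3, 58.5 and 65.6 TPM in Wtap KO, against 63.7, 58.0 and 66.1 TPM in WT. The repressor sum lay between 58.0 and 66.1 TPM in every library, with means of 62.5 ± 3.64 TPM in Wtap KO and 62.6 ± 4.15 TPM in WT (SD, n = 3 each), although its single genes differed between WT libraries. Per unit of Max, the repressor sum was 0.584, 0.559 and 0.496 in Wtap KO, against 0.839, 0.684 and 0.688 in WT, and these ranges did not overlap. With nearly equal repressor sums, this ratio restates the Max levels, 105 to 132 TPM in Wtap KO and 75.9 to 96.1 TPM in WT. Max was not called. The ratio of Myc and Mycn to the repressors was 1.97, 1.66 and 1.24 in Wtap KO, against 1.05, 1.52 and 0.973 in WT, with WT replicate 2 above Wtap KO replicate 3. The ratio of Myc and Mycn to Max was 1.15, 0.926 and 0.617 in Wtap KO, against 0.883, 1.04 and 0.669 in WT, so the lowest and the highest library were both in the Wtap KO group. These are RNA ratios and give no protein or dimer amounts.

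**Figure D3:**
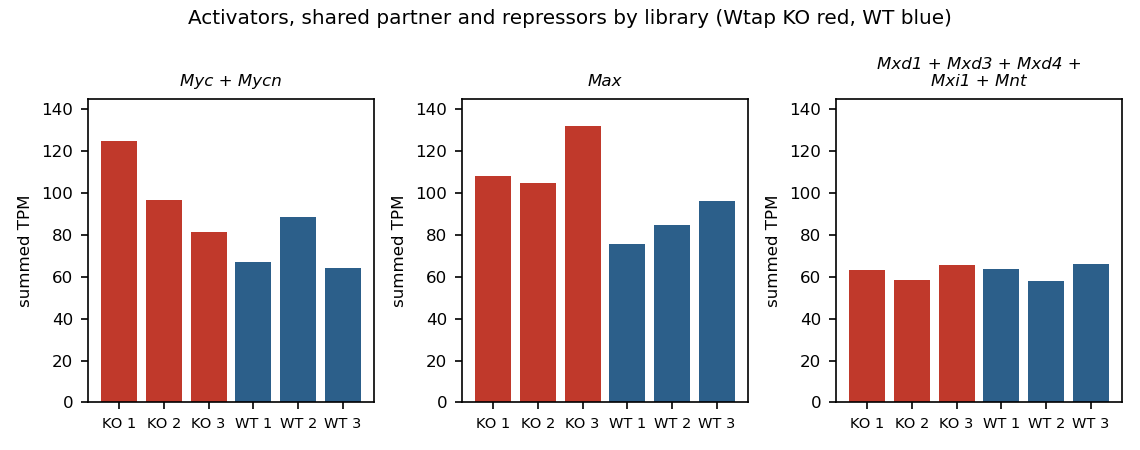
Summed TPM of Myc and Mycn (left), of Max (middle) and of the repressors Mxd1, Mxd3, Mxd4, Mxi1 and Mnt (right), 1 bar per library, with the 3 Wtap KO libraries left of the 3 WT libraries and the same axis from 0 in each panel. The repressor sum lies between 58.0 and 66.1 TPM in all 6 libraries, and the Max bars of Wtap KO are all above those of WT.

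The promoters of Max, Mlx and Mxi1 are shown because MYC, MXD and MLX dimers bind E-boxes, and because Mxi1 is transcribed from separate starts that the libraries used unequally. Windows of 300 bases around the start of a gene were available from RefSeq (GRCm38.p6) for 8 of the 9 members, all but Myc. The E-box CACGTG, whose reverse complement is the same word, was found in the windows of 4 of these 8 members, at 219 bases before the start for Mxd4, 123 for Mnt, 40 for Mlx and 3 for Max. Counted by window, 4 of the members' 10 windows held it (Mxi1 has 3, all without it), beside 7.15% of 32851 mouse windows of this length. A match is a description of the letters and does not show binding. In the lines below, capitals mark the E-box and all other letters are lower case, 5′ to 3′ on the strand of the gene. The Max window is chr12:76962199-76962498 on the minus strand and the Mlx window chr11:101087040-101087339 on the plus strand. The upstream Mxi1 window is chr19:53310256-53310555 and the downstream Mxi1 window chr19:53329163-53329462, both on the plus strand and without the E-box.
Max: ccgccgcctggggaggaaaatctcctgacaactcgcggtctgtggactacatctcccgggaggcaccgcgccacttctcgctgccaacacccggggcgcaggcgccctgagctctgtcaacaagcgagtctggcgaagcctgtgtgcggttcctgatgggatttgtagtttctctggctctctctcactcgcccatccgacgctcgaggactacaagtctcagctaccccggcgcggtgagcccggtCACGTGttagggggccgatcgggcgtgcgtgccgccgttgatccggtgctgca
Mlx: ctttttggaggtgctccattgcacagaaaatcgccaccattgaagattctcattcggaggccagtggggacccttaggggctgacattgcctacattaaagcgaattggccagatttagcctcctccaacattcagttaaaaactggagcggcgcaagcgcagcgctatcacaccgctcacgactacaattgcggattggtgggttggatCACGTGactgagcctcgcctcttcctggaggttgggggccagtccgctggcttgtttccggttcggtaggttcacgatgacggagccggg
Mxi1 upstream start: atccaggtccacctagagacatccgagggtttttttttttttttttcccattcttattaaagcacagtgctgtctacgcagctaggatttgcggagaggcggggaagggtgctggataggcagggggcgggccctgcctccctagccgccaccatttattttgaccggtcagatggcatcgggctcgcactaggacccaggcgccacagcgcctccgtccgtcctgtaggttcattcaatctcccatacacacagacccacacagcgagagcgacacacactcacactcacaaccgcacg
Mxi1 downstream start: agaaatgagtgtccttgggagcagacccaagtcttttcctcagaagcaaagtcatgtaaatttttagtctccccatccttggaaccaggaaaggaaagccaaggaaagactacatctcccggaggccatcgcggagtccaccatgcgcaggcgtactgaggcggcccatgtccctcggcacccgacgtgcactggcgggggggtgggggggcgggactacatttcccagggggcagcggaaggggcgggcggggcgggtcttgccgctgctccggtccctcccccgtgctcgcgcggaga

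The upstream Mxi1 window contains the start of Mxi1-201, which encodes 295 residues, and the downstream window that of Mxi1-203, which encodes 228 residues. Mxi1-201 held 61.6%, 82.9% and 51.0% of the gene's counts in Wtap KO, against 90.7%, 71.3% and 64.8% in WT. Mxi1-203 held 35.8%, 14.2% and 45.9% in Wtap KO, against 7.19%, 25.3% and 32.4% in WT. The groups overlapped, with means for Mxi1-201 of 65.2% ± 16.2 in Wtap KO and 75.6% ± 13.5 in WT (SD, n = 3 each; adjusted p = 0.770, limma). The high Mxi1 level of WT replicate 1 lay in Mxi1-201, with 2161 estimated counts there against 664 and 838 in the other WT libraries and 804 to 1282 in Wtap KO.

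No transcript of a member passed the test for its share of the gene. Of 49 annotated transcripts of the members, 27 from 8 genes could be tested, and 0 passed with limma on log-ratios, beside 0.324% of all 39139 transcripts tested. With edgeR and the gene total as offset, 0 of the 27 passed, beside 0.21% of all. At an unadjusted p under 0.05 there was 1, Mlx-204, beside 10.2% of all transcripts. This minor non-coding form held 3.47%, 1.59% and 2.66% of Mlx counts in Wtap KO, against 1.10%, 1.18% and 0.667% in WT (adjusted p = 0.368, limma), and was singled out after its values were seen.

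Max-201 and Max-202 encode forms of 151 and 160 residues, which are known to differ by a short insert ahead of the basic region. Max-202 held 33.1%, 35.8% and 28.8% of Max counts in Wtap KO, against 26.2%, 23.4% and 32.3% in WT. WT replicate 3 lay within the Wtap KO range, and the adjusted p was 0.624 (limma). Max-201 held nearly all of the remainder, 65.0% ± 3.55 in Wtap KO and 70.6% ± 4.70 in WT (SD, n = 3 each).

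Of the Myc transcripts, Myc-204 starts downstream of the first exon of the longer forms and held 48.2% ± 2.99 of the counts in Wtap KO and 50.3% ± 4.30 in WT (SD, n = 3 each). Myc-206 held 28.1% ± 2.86 in Wtap KO and 23.8% ± 4.94 in WT. Myc-201 and Myc-205 are the same RNA sequence of 2338 bases, annotated with proteins of 454 and 439 residues from different start codons, and were listed with equal shares of 11.8% ± 1.23 each in Wtap KO and 12.4% ± 0.297 each in WT. The files therefore cannot separate them. Short paired reads are split between forms by estimation, and the files carry no error for that split.

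One form dominated each of Mxd1, Mxd3, Mxd4 and Mnt. Mxd1-201 held 97.8% in Wtap KO and 97.0% in WT, Mxd3-201 91.9% in Wtap KO and 91.4% in WT, and Mxd4-201 91.3% in Wtap KO and 91.1% in WT. Mnt-201 held 87.8% in Wtap KO and 87.6% in WT, with the remainder in a form with a retained intron, Mnt-203, at 12.2% in Wtap KO and 12.4% in WT. Mlx was spread over Mlx-202 (73.5% in Wtap KO and 68.3% in WT), Mlx-201 (13.1% in Wtap KO and 14.9% in WT) and Mlx-203 (9.93% in Wtap KO and 14.3% in WT). Mycn had too few counts for this test. Its transcript Mycn-202 was listed with 38.2% of the counts in WT replicate 2 and 0% to 1.40% in each other library.

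**Figure D4:**
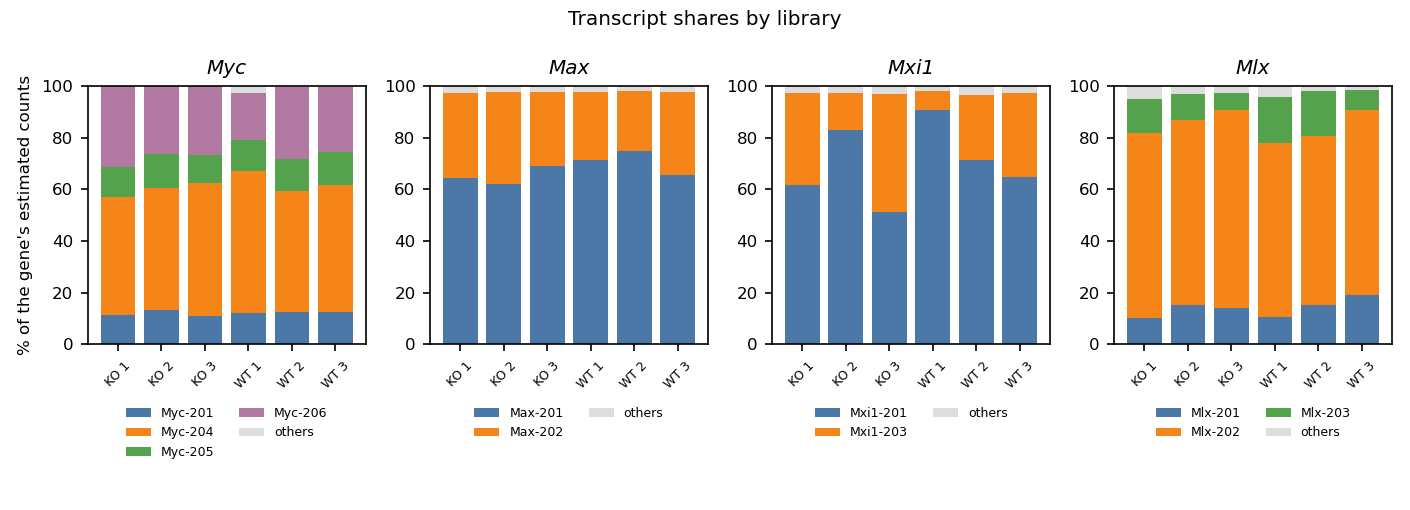
Stacked bars of the share of a gene's estimated counts (percent) held by the main transcripts of Myc, Max, Mxi1 and Mlx in each library, with the 3 Wtap KO libraries (KO) left of the 3 WT libraries and all other transcripts in grey. Mxi1-201 ranges from 51.0% to 82.9% in Wtap KO and from 64.8% to 90.7% in WT.

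Of 7 further genes of the extended network, 6 were tested and 2 were called, and both rose (33.3% of those tested, beside 5.74% of all genes). These genes were chosen with earlier results of these data known, so the share is a description. Bmyc, a rodent relative of Myc that lacks the DNA-binding end, was measured at 18.9, 15.4 and 16.6 CPM in Wtap KO, against 10.1, 9.09 and 9.21 CPM in WT. All Wtap KO libraries lay above all WT libraries, and the log2 fold change was 0.84 ± 0.14 (SE, adjusted p = 0.0102, edgeR), a 1.79-fold difference. The call was lost without WT replicate 2 (adjusted p = 0.0514, edgeR) and without Wtap KO replicate 1 (adjusted p = 0.0599, edgeR). Bmyc and Myc share no stretch of 31 bases, kallisto's default word length. Bmyc shares 6 of its 953 such stretches with Mycl, the other called gene, and their effect on the counts was not tested.

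Mycl, the MYC family member that dendritic cells use, was measured at 1.55, 1.87 and 0.797 CPM in Wtap KO, against 0.193, 0.50 and 0.327 CPM in WT, which are 36 to 76 estimated counts per Wtap KO library and 7 to 16 per WT library. The groups did not overlap, and the log2 fold change was 2.04 ± 0.44 (SE, adjusted p = 0.0249, edgeR). The call was lost without Wtap KO replicate 1 (adjusted p = 0.101, edgeR), without Wtap KO replicate 2 (adjusted p = 0.107, edgeR) and with an offset for effective length, where the log2 fold change was 1.55 (adjusted p = 0.0577, edgeR). Of the 10 dendritic cell markers, 8 were tested and 3 (H2-Aa, Cd74 and Batf3) rose (37.5%, beside 5.74% of all genes). The 10 markers summed to 45.1 to 60.4 TPM in Wtap KO and 11.8 to 37.7 TPM in WT. The call of Cd74 was lost without any 1 library other than WT replicate 2 (adjusted p up to 0.118, edgeR) and without the filter on low counts (adjusted p = 0.155, edgeR). Clec9a and Siglech, markers of dendritic cell subsets, were too low to be tested. The part of these markers in the Mycl result was not tested.

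The other genes of the extended network were not called. Pvt1, a long non-coding RNA next to Myc on chromosome 15, was measured at 27.7, 30.5 and 28.6 CPM in Wtap KO, against 22.8, 23.3 and 22.5 CPM in WT. The groups did not overlap, and the log2 fold change was 0.34 ± 0.11 (SE, adjusted p = 0.0849, edgeR). DESeq2 gave an adjusted p of 0.0478, and limma on log2(TPM + 1) gave 0.0377. Pvt1 passed the threshold in 3 of 15 alternative settings. With edgeR, the adjusted p was 0.223 without the filter on low counts and 0.179 with a replicate block. It was 0.0831 to 0.313 with a library left out. Mga, which pairs with MAX in a repressive complex, had a log2 fold change of 0.05 ± 0.10 (SE, adjusted p = 0.800, edgeR). Mlxip, which encodes MondoA, had one of 0.05 ± 0.13 (SE, adjusted p = 0.860, edgeR), with a sign that depended on the setting. Mlxipl was at 0.236 to 0.332 CPM in Wtap KO and 0.304 to 0.406 CPM in WT, and Mycs was listed at 0 in all 6 libraries.

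The genes whose log2 CPM followed Myc most closely over the 6 libraries were Cd3eap, a subunit of RNA polymerase I (Pearson r = 0.987), Vps39 (0.987), Rnf19b (0.983), Bcl2l1 (0.982) and Cish (0.981), out of 7906 protein-coding genes compared. Cish, an inhibitor of cytokine receptor signalling that is induced through STAT5, was measured at 98.4, 64.0 and 33.6 CPM in Wtap KO, against 14.9, 33.9 and 15.7 CPM in WT. Bcl2l1, which encodes the survival protein BCL-XL, was measured at 48.2, 39.3 and 22.7 CPM in Wtap KO, against 17.9, 32.7 and 15.4 CPM in WT. Like Myc, both were highest in Wtap KO replicate 1, and WT replicate 2 was the highest WT library. These genes were picked for the likeness, so the coefficients describe these 6 libraries and have no test.

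Among genes that MYC is known to activate, single genes of ribosome production, polyamine and folate metabolism and the cell cycle rose, and a few fell. Over 4 lists with 115 tested genes, 16 rose (13.9%, beside 5.74% of all genes) and 3 fell (2.61%, beside 3.48% of all genes), with a median log2 fold change of 0.04 beside 0.00 over all genes. All lists were chosen with earlier results of these data known, so these shares describe the lists and are no test. With the GC offset, 14 rose (12.2%, beside 5.41% of all genes) and 7 fell (6.09%, beside 7.34%). The number that rose was 5 (4.35%) without WT replicate 2, Wtap KO replicate 1 or Wtap KO replicate 2, where 2.17%, 1.56% and 1.45% of all genes were called higher. It was 7 (6.09%) without Wtap KO replicate 3, beside 2.60% of all genes, 17 (14.8%) without WT replicate 3, beside 6.28%, and 21 (18.3%) without WT replicate 1, beside 7.45%. In the ribosome biogenesis list, 8 of 42 rose (19.0%, beside 5.74% of all genes) and 0 fell, with a median log2 fold change of 0.18. DESeq2 called 11 higher (26.2%, beside 7.75% of all genes) and 0 lower. At an unadjusted p under 0.05, edgeR gave 17 of 42, beside 26.3% of all genes. Polr1b, a subunit of RNA polymerase I, was measured at 15.7, 14.0 and 14.6 CPM in Wtap KO, against 7.65, 7.72 and 8.70 CPM in WT, a 1.84-fold rise (adjusted p = 0.00768, edgeR). Nop2, an rRNA methyltransferase, averaged 37.8 ± 3.51 CPM in Wtap KO and 20.9 ± 3.88 CPM in WT (SD, n = 3 each), and Ddx21, a nucleolar helicase, averaged 215 ± 4.19 CPM in Wtap KO and 136 ± 23.0 CPM in WT. The other 5 called genes, named after their values were seen, were Nolc1, Rcl1, Mrto4, Utp20 and Polr1a. The number that rose in this list was 1 (2.38%) without WT replicate 2, Wtap KO replicate 1 or Wtap KO replicate 2, and 3 (7.14%) without Wtap KO replicate 3. Genes called higher over the whole genome also dropped in these fits, to the shares given above. It was 10 (23.8%) without WT replicate 1 or WT replicate 3.

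In the list of nucleotide and polyamine synthesis, 4 of 23 rose (17.4%, beside 5.74% of all genes) and 1 fell (4.35%, beside 3.48%). The median log2 fold change was 0.14. Odc1, the rate-limiting enzyme of polyamine synthesis and a classical MYC target, was measured at 146, 177 and 131 CPM in Wtap KO, against 71.9, 78.8 and 58.6 CPM in WT, a 2.17-fold rise (adjusted p = 0.00474, edgeR). Shmt1, a serine hydroxymethyltransferase of the cytosol, averaged 22.4 ± 2.10 CPM in Wtap KO and 9.46 ± 0.901 CPM in WT (SD, n = 3 each), a 2.36-fold rise. Umps and Cad, enzymes of pyrimidine synthesis, also rose, Umps by 1.61-fold. Impdh1, an enzyme of guanine nucleotide synthesis, fell to 13.9 ± 2.62 CPM in Wtap KO, against 21.3 ± 0.619 CPM in WT. Its call was lost with the offset for effective length, both limma fits and the replicate block.

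In the list of nutrient uptake and metabolism, 2 of 24 rose (8.33%, near the 5.74% of all genes) and 1 fell (4.17%, near 3.48%), with a median log2 fold change of −0.13. The balance depended on the setting. DESeq2 called 3 higher (12.5%, beside 7.75% of all genes) and 5 lower (20.8%, beside 6.88%). With the GC offset, 1 was higher (4.17%, beside 5.41%) and 4 lower (16.7%, beside 7.34%). Without WT replicate 3, 1 was higher (4.17%, beside 6.28%) and 4 lower (16.7%, beside 4.48%). Slc19a1, a folate carrier, averaged 22.7 ± 3.69 CPM in Wtap KO and 9.75 ± 1.40 CPM in WT (SD, n = 3 each), a 2.33-fold rise. Slc3a2, the heavy chain of amino acid transporters, rose by 1.33-fold, whereas Ldha, lactate dehydrogenase A, fell to 460 ± 72.2 CPM in Wtap KO, against 709 ± 132 CPM in WT. In the list of growth and the cell cycle, 2 of 26 rose (7.69%) and 1 fell (3.85%), also near the shares over all genes, with a median of −0.02. Ccnd2, cyclin D2, was measured at 428, 425 and 401 CPM in Wtap KO, against 275, 272 and 267 CPM in WT, a 1.54-fold rise (adjusted p = 0.00586, edgeR). Pprc1, a coactivator of genes for mitochondrial function, rose by 2.06-fold. Cks2, a subunit bound to cyclin-dependent kinases, fell to 105 ± 9.20 CPM in Wtap KO, against 146 ± 17.9 CPM in WT. The call of Cks2 was lost with the offset for effective length, both limma fits and the replicate block.

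**Figure D5:**
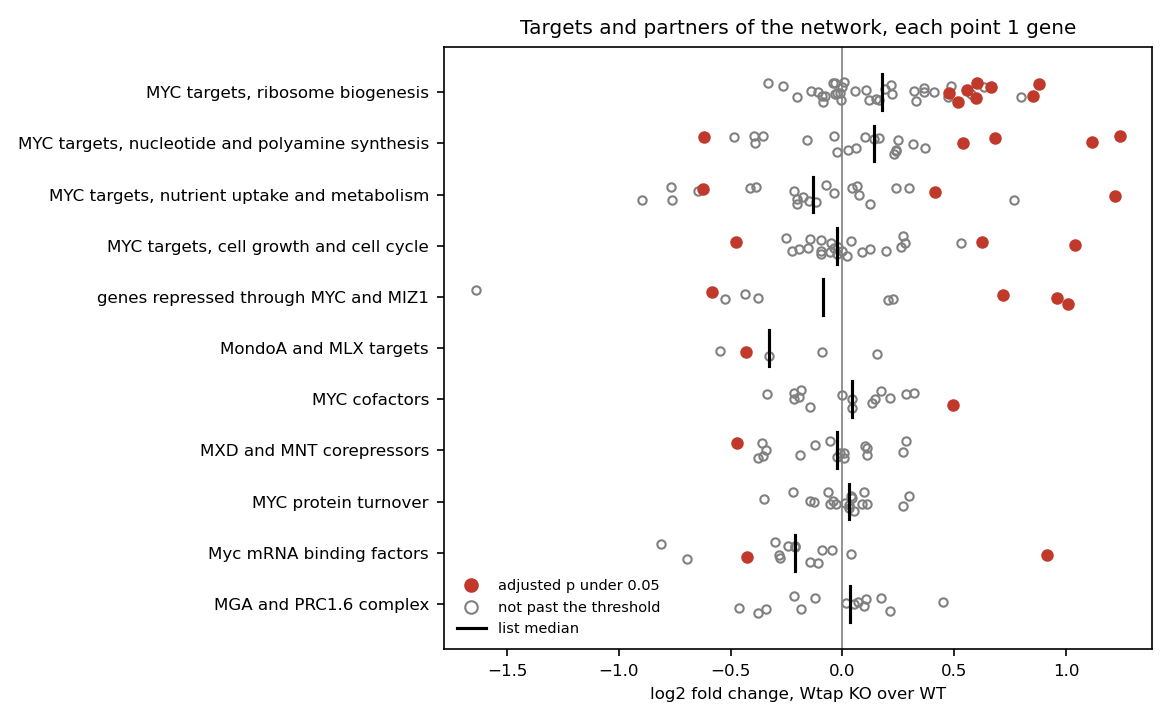
Log2 fold change (Wtap KO over WT) of each tested gene in the lists of targets and partners, 1 row per list, with called genes filled and the list median as a line. The ribosome biogenesis row has called genes on the higher side only, and the rows of MYC turnover and of the MGA complex have none.

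Among 10 tested genes listed as repressed by MYC together with MIZ1, 3 rose (30.0%, beside 5.74% of all genes) and 1 fell (10.0%, beside 3.48%). The median log2 fold change was −0.09. The list was written from general knowledge, and whether MIZ1 acts on these genes here was not tested. At an unadjusted p under 0.05, edgeR gave 8 of 10, beside 26.3% of all genes, and the called genes among them lay in both directions. These are few genes, and the number tested changed with the libraries. Without WT replicate 2 or Wtap KO replicate 1, 11 were tested and 0 were called higher. Also 0 were called higher of 10 tested without Wtap KO replicate 2 and of 12 without Wtap KO replicate 3. Without WT replicate 1, 12 were tested, with 3 higher (25.0%, beside 7.45% of all genes) and 3 lower (25.0%, beside 5.05%). Cdkn1a, which encodes the cell cycle inhibitor p21, was measured at 37.3, 37.3 and 37.8 CPM in Wtap KO, against 25.7, 15.3 and 14.8 CPM in WT, a 2.01-fold rise (adjusted p = 0.0208, edgeR). Gadd45b, a stress-induced gene, rose by 1.65-fold. Nfkbia, the inhibitor of NF-kappaB that NF-kappaB itself induces, rose by 1.95-fold. Ndrg2 fell to 23.7 ± 0.864 CPM in Wtap KO, against 35.6 ± 5.10 CPM in WT, a call lost with the offset for effective length, both limma fits and the replicate block. Cdkn1a and Gadd45b are also known as targets of p53 and of stress pathways.

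Among the 5 targets of MondoA and MLX, 0 rose and 1 fell, with a median log2 fold change of −0.33. DESeq2 called 2 lower (40.0%, beside 6.88% of all genes), as did the GC offset (40.0%, beside 7.34%). Limma and the length offset called 0, beside 1.87% to 2.75% of all genes called lower. Hbp1, a transcriptional repressor, fell to 46.2 ± 2.62 CPM in Wtap KO, against 62.2 ± 3.10 CPM in WT (SD, n = 3 each; adjusted p = 0.0346, edgeR). Txnip, the inhibitor of glucose uptake by which MondoA activity is often read, was looked at after its values were seen. It was measured at 366, 365 and 467 CPM in Wtap KO, against 730, 514 and 505 CPM in WT. The groups did not overlap, but Txnip was not called (adjusted p = 0.0766, edgeR).

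The genes that act with or on the network proteins were mostly not called. Of 16 MYC cofactors, 1 rose (6.25%, near the 5.74% of all genes). It was the elongation kinase gene Cdk9, at 41.4 ± 3.96 CPM in Wtap KO and 29.3 ± 2.26 CPM in WT (SD, n = 3 each). With the length offset, both limma fits and the replicate block, that call was lost and 0 of the 16 were called. Of 17 genes for corepressors of the MXD proteins and MNT, 1 fell, the SIN3 complex gene Sap18, to 53.0 ± 2.81 CPM in Wtap KO, against 73.6 ± 8.13 CPM in WT. That is 5.88% of the list, beside 3.48% of all genes. DESeq2 called 3 lower (17.6%, beside 6.88% of all genes) and the GC offset 4 (23.5%, beside 7.34%). With limma and the length offset, 0 were lower, beside 1.87% to 2.75% of all genes. Of 19 genes for MYC protein turnover, among them the ubiquitin ligase gene Fbxw7, 0 were called by edgeR, 0 had an unadjusted p under 0.05, and DESeq2 called 0. Over all genes these shares were 9.23%, 26.3% and 14.6%. Of 14 genes of the MGA and PRC1.6 complex, 0 were called by edgeR, 4 had an unadjusted p under 0.05, beside 26.3% of all genes, and DESeq2 called 2, 1 in each direction, beside 14.6% of all genes.

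Of 15 tested genes for proteins that bind Myc mRNA, 1 rose (6.67%, near the 5.74% of all genes) and 1 fell (6.67%, beside 3.48%). The median log2 fold change was −0.21. DESeq2 called 1 higher and 3 lower, and limma and the length offset 1 higher and 0 lower. Ythdf2, a reader of methylated adenosines that speeds mRNA decay, was measured at 116, 123 and 128 CPM in Wtap KO, against 70.8, 64.5 and 58.6 CPM in WT, a 1.89-fold rise (adjusted p = 0.00277, edgeR). Hnrnpd, which encodes the AU-rich element binding protein AUF1, fell to 138 ± 8.15 CPM in Wtap KO, against 185 ± 20.1 CPM in WT. Of the 22 genes named from these target and partner lists, 6 kept the call without each of the 6 libraries in turn, namely Ythdf2, Ccnd2, Shmt1, Odc1, Slc19a1 and Polr1b. The other 16 each lost it without WT replicate 2 and without Wtap KO replicate 2. Of these, 15 lost it without Wtap KO replicate 1, 15 without Wtap KO replicate 3, 4 without WT replicate 3 and 1 without WT replicate 1 (highest adjusted p 0.191, edgeR). With all libraries kept, Sap18, Hbp1 and Hnrnpd lost the call with the length offset, both limma fits and the replicate block. Slc3a2 and Gadd45b lost it with the length offset, the replicate block and the GC offset. Nfkbia, Pprc1 and Slc3a2 lost it without the filter on low counts. Ldha lost it with both limma fits, and Polr1b with limma on log2(TPM + 0.1).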

How the data were processed

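The submitters' processing notes name kallisto 0.44.0, DESeq2 and GRCm38 (mm10). What DESeq2 was used for, the strand setting and the annotation release are not given here. The authors deposited estimated counts and TPM values per transcript; these estimated counts need not be whole, because reads that fit several transcripts are split. The deposited TPM values are relative to effective length, which the deposited tables give as lengths in bases.

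Transcripts were matched by identifier to GENCODE vM21 (141524 of 142647, holding at least 99.73% of counts) and summed per gene as rounded estimated counts. Genes were tested with edgeR 4.0.16 (R 4.3.3; quasi-likelihood, robust, TMM, filterByExpr, genotype only), with Benjamini-Hochberg adjustment over all genes and a threshold of 0.05. CPM uses TMM library sizes. SE is the absolute log2 fold change over the square root of F. Transcript usage was tested with limma 3.58.1 on log2 ratios of a transcript to its gene's other transcripts (pseudocount 0.5). On simulated data this usage test made more false calls than its threshold allows, counted only in genes in which no transcript had been changed. Every simulated transcript was drawn with the same spread, so the rate in the real counts was not tested. DESeq2 1.42.0 was an alternative. Members and lists were chosen with earlier results of these data known. Named genes were the members, the extended network, Wtap, from each other list the 3 called genes with the smallest p per direction and a mean of at least 5 CPM, and the 5 genes most correlated with Myc (mean at least 10 CPM).

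The lists were the extended network, MYC cofactors, MXD and MNT corepressors, MYC turnover, Myc mRNA binding factors, 4 lists of MYC targets, genes repressed with MIZ1, MondoA and MLX targets, the MGA complex and cell type markers. Alternatives covered normalization, tool, filters, length, unit, GC content, a replicate block and each library left out.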

Additional observations from a re-analysis of the deposited data

How the results depend on the processing

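No member passed the threshold under any of 15 alternative settings, including an offset on GC content that was added after seeing the data. Of the directions, that of Mxd4 turned with limma on log2(TPM + 1) (0.032) and log2(TPM + 0.1) (0.039), and that of Mnt with the GC offset (−0.044). Leaving out 1 library at a time gave log2 fold changes of −0.36 to 0.20 for Mxd4, −0.015 to 0.32 for Mnt and −0.44 to 0.21 for Mxi1. For Mlxip they were −0.053 to 0.15, and −0.15 with the length offset, −0.083 with log2(TPM + 1), −0.088 with log2(TPM + 0.1) and −0.083 with the GC offset. The cause was not tested.

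Genes called higher numbered 263 to 1359 and genes called lower 98 to 920 with a library left out. Genes called lower were 614 in the main test, 1212 with DESeq2, 330 with log2(TPM + 1), 337 with log2(TPM + 0.1) and 1292 with the GC offset. Of the calls, the higher ones made up 62.2% in the main test, 73.9% with log2(TPM + 1), 73.3% with log2(TPM + 0.1) and 42.4% with the GC offset. Same-numbered libraries deviated from their group means with correlations of −0.09, 0.06 and 0.12, so the numbers were not read as pairs; with a replicate block, 713 genes were called higher, 346 lower and 0 of 9 members, and no transcript in the usage test (0), Wtap-205 included (adjusted p = 0.252). With that block, Cd4 and Cd8b1 also lost the call. The nutrient list held 2 higher (8.33%, beside 4.05% of all genes) and 5 lower (20.8%, beside 1.96%). In the corepressor list, 0 were called.

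Transcripts called in usage were 127, against 82 with the gene total as offset and 3 to 90 with a library left out. In those fits the log2 ratio spanned −0.12 to 0.20 for Mxd4-201, −0.23 to 0.014 for Myc-204, −0.46 to 0.040 for Mlx-201, −0.10 to 0.30 for Mxd3-201, −0.061 to 0.15 for Mnt-201 and −0.15 to 0.061 for Mnt-203. Without Mxd4, the ratio of Myc and Mycn to the repressors was 2.08 in Wtap KO and 1.53 in WT. Mycn, at a mean under 5 CPM, has no value under that filter. Its 43 to 73 estimated counts per Wtap KO library and 61 to 81 per WT library limit its precision.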

Other observations

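Markers of other cell types were low in all libraries. The 8 B cell markers, of which 5 were tested and 1 (Ebf1, named after its values were seen) rose, summed to 3.54 to 4.84 TPM in Wtap KO and 2.16 to 3.67 TPM in WT. Of the 5 NK cell markers, 2 were tested and 0 called (edgeR; 1 had an unadjusted p under 0.05 and DESeq2 called 1), with sums of 1.80 to 2.98 TPM in Wtap KO and 0.561 to 1.61 TPM in WT. The 9 macrophage and monocyte markers, of which 3 were tested and 0 called (edgeR; 1 at an unadjusted p under 0.05, 0 with DESeq2), summed to 2.20 to 4.88 TPM in Wtap KO and 3.13 to 4.39 TPM in WT. Of the 7 granulocyte and mast cell markers, 1 was tested and 0 called (edgeR; 0 at an unadjusted p under 0.05, 0 with DESeq2). They summed to 1.41 to 2.42 TPM in Wtap KO and 0.44 to 1.15 TPM in WT. Of the 8 erythroid and platelet markers, 3 were tested and 0 called (edgeR; 0 at an unadjusted p under 0.05, 0 with DESeq2), with sums of 5.69 to 15.2 TPM in Wtap KO and 4.17 to 12.4 TPM in WT.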
